A study of Homo sapiens with 8 samples.

Results

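The striatin family genes examined here were STRN, STRN3, STRN4, STRIP2 and MOB4, which are 5 of the 21597 genes with a spliced read in these data. They were named by a list, and their splice junctions were those that matched an annotated intron of one of the genes or shared a splice site with one. That gave 274 of the 654181 junctions seen in any library, 107 of them annotated in GENCODE 29 and 167 sharing a site only. The cells were HEK293, an established line of human embryonic kidney origin. One group of 4 libraries came from cells given 25 nM LMI070, also called branaplam, a small-molecule splicing modulator, and the other 4 came from cells given dimethyl sulfoxide (DMSO), its solvent. Total RNA without ribosomal RNA was sequenced with strand-specific libraries, and the data are counts of reads that cross each splice junction. The libraries carry the numbers 13 to 16 in LMI070 and 9 to 12 in DMSO, and lanes 7 and 8 each held 2 libraries of each group. The duration of the treatment is not given in the sources used here, and no label tells whether the libraries are separate cultures. A p therefore speaks only of the spread among these libraries.

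Striatins are scaffold proteins with a coiled coil near the amino terminus and WD repeats at the carboxyl terminus. They serve as regulatory subunits of protein phosphatase 2A and hold together the STRIPAK complex (striatin-interacting phosphatase and kinase), in which the phosphatase sits beside kinases of the GCKIII family. STRIPAK is known as a brake on Hippo signalling, because its phosphatase acts on the kinases MST1 and MST2. STRN, STRN3 and STRN4 are the scaffolds, STRIP2 is a large core subunit of the complex, and MOB4 is a small adaptor that belongs to the MOB family of kinase regulators.

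The results turn on a pair of adjacent alternative exons of STRN3 and on the exon of STRN that corresponds to the first of them. The sequences are from GENCODE 29 transcripts on GRCh38, printed 5′ to 3′ on the minus strand with the last 3 bases of each exon, which adjoin the 5′ splice site, in capitals. STRN3 exon 8 lies at chr14:30929201-30929311, STRN3 exon 9 at chr14:30918966-30919106 and STRN exon 8 at chr2:36886716-36886826, and all 3 are coding.
STRN3 exon 8: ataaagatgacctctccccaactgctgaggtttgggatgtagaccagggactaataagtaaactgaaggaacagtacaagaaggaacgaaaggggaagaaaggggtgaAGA
STRN exon 8: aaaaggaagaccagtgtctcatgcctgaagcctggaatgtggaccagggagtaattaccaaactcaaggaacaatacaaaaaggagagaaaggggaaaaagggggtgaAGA
STRN3 exon 9: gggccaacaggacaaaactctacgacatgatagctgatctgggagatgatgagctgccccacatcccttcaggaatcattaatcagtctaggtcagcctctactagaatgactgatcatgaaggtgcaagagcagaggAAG

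Both exons numbered 8 are 111 nt long, which is 37 codons, and both end in AGA, while STRN3 exon 9 has 141 nt, or 47 codons, and ends in AAG. The STRN3 and STRN exons share 83 of 111 aligned bases. Ends of AGA are uncommon: 1852 of 244844 internal exons in GENCODE 29 (0.756%) have one. Among the 73 internal exons of the 5 genes, counted in the transcript with the longest coding sequence of each, 2 ended in AGA, and these were the exons 8 of STRN3 and STRN. STRN4 had no exon that matched STRN3 exon 8 in the alignment of the proteins, where 2 residues of STRN4, encoded in its exon 7, stood opposite the exon. STRN4 exon 8, of 114 nt, matched STRN3 exon 9. Over their whole length the proteins were 66.3% identical between STRN3 and STRN (512 of 772 aligned residues) and 60.4% identical between STRN3 and STRN4 (431 of 713).

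The libraries held 20369466 to 36131054 uniquely mapped junction reads in LMI070 and 21975349 to 26716014 in DMSO. LMI070 library 16 and DMSO library 12 correlated least with the others over spliced reads per gene, with mean Pearson correlations of 0.996 each, and the counts led with below are also given without both. Of the HEK293 marker genes 5 of 6 exceeded 1 CPM (scaled counts per 1e6 reads), and PAX2 did not; their summed level was 492 to 499.9 CPM in LMI070 and 486 to 506 CPM in DMSO. Of the 5 fibroblast markers COL1A1 and COL3A1 were above 1 CPM, and the list summed to 22.8 to 30.7 CPM in LMI070 and 19.8 to 24.4 CPM in DMSO; its part in the results was not tested. Markers of keratinising epithelium (4.76 to 6.23 CPM in LMI070, 4.66 to 6.29 CPM in DMSO), blood (0.286 to 0.807 CPM in LMI070, 0.153 to 0.484 CPM in DMSO) and hepatocytes (0.0448 to 0.19 CPM in LMI070, 0.0362 to 0.132 CPM in DMSO, SERPINA1 at 0) were low in both groups.

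STRN3 exon 8 was included more often with LMI070. The cassette measure takes the mean of the junctions from exon 7 to 8 and from exon 8 to 10. Inclusion is that mean as a percentage of itself plus the reads that skip from exon 7 to exon 10. Left out are the junctions from exon 8 to 9 (238 reads in LMI070, 148 in DMSO) and from exon 7 to 9 (47 in LMI070, 85 in DMSO). A measure against every junction that jumps the exon is given below. Inclusion by the cassette measure was 70.9%, 83.5%, 76.2% and 75.6% in LMI070 libraries 13 to 16, against 43.2%, 44.2%, 45.5% and 42.4% in DMSO libraries 9 to 12. Every LMI070 library lay above every DMSO library. The means were 76.6% ± 5.20 in LMI070 and 43.8% ± 1.32 in DMSO (SD, n = 4 each), a difference of 32.8 percentage points. The ratio of including to skipping reads rose by 2.06 on the log2 scale (SE 0.19), with an adjusted p of 2.80e-11 in the edgeR quasi-likelihood test over 28467 cassette exons. Within lane 7 the means were 73.2% in LMI070 and 43.9% in DMSO, and within lane 8 they were 79.9% in LMI070 and 43.7% in DMSO. The difference of 36.2 points in lane 8 was not distinguishable from the 29.3 points in lane 7 (edgeR interaction, adjusted p = 1). By size of the rise this exon ranked 2 among 17359 annotated cassette exons, of which 14 were called higher.

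Of the 26 cassette exons of the 5 genes that could be tested, 2 were called higher with LMI070 and 0 lower, with both an adjusted p below 0.05 and a shift of 10 points or more required. Over all exons tested the share called higher was 0.148% and the share called lower 0.00351%. Both called exons were exons 8 and 9 of STRN3, which share the skipping junction and so are not independent. Others of the 26 overlap and share a junction with a neighbouring form, so the 26 are not all separate exons. The median difference over the 26 exons was 0.34 points, against 0.0012 points over all exons. At an unadjusted p under 0.05 there were 5 of the 26, against 5.28% of all exons. The groups did not overlap for 4 of the 26, against 3.52% of all exons: both STRN3 exons, an unannotated 87-nt exon of STRN and an unannotated 182-nt exon of STRIP2 that differed by 2.28 points and was picked out after its values were seen. DESeq2 called 1 of the 26, STRN3 exon 8, and 33 exons in all, against 43 by edgeR. Without LMI070 library 16 and DMSO library 12 the count of exons called higher was again 2.

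The deposited reads allow the RNA between exons 7 and 10 of STRN3 to be divided into 4 forms, each of which has 1 junction of its own: exon 8 joined to 9 (both exons), exon 8 to 10 (exon 8 only), exon 7 to 9 (exon 9 only) and exon 7 to 10 (neither). These junctions together had 144 to 243 reads per LMI070 library and 157 to 172 per DMSO library. The shares of the 4 forms were compared with a two-sided exact permutation test over the 70 assignments of 4 libraries, for which the smallest possible p is 0.0286. After Benjamini-Hochberg adjustment over the 8 shares tested, the lowest adjusted p was 0.0571, and no share passed.

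The form without either exon took the smaller share with LMI070. It made up 22.2%, 15.6%, 19.3% and 21.53% of form-specific reads in LMI070 libraries 13 to 16, against 43.7%, 45.4%, 40.1% and 43.3% in DMSO libraries 9 to 12. The groups were far apart, with means of 19.7% ± 2.99 in LMI070 and 43.1% ± 2.20 in DMSO (SD, n = 4 each; exact permutation p = 0.0286). The difference was -19.8 points in lane 7 and -27.1 points in lane 8.

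Both forms with exon 8 took the larger share with LMI070. The form with exons 8 and 9 had 38.3%, 29.9%, 30.7% and 34.0% in LMI070 libraries 13 to 16, against 22.8%, 22.1%, 22.7% and 23.6% in DMSO libraries 9 to 12. The 4 DMSO libraries were close together and below all LMI070 libraries, with means of 33.2% ± 3.81 in LMI070 and 22.8% ± 0.61 in DMSO (SD, n = 4 each; exact permutation p = 0.0286). The form with exon 8 only had 34.2%, 45.5%, 43.3% and 38.2% in LMI070 libraries 13 to 16, against 18.4%, 17.8%, 29.1% and 18.5% in DMSO libraries 9 to 12. DMSO library 11 stood above the other DMSO libraries, and the groups did not overlap; the means were 40.3% ± 5.12 in LMI070 and 20.9% ± 5.44 in DMSO (SD, n = 4 each; exact permutation p = 0.0286). This difference was 12.4 points in lane 7 and 26.3 points in lane 8.

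The form with exon 9 only was the least frequent in both groups. It had 5.35%, 8.98%, 6.67% and 6.25% in LMI070 libraries 13 to 16, against 15.2%, 14.7%, 8.14% and 14.6% in DMSO libraries 9 to 12. DMSO library 11 lay inside the LMI070 range, and the means of 6.81% ± 1.55 in LMI070 and 13.2% ± 3.37 in DMSO gave an exact permutation p of 0.0571 (SD, n = 4 each). Added over both forms, exon 8 was in 73.5% ± 1.51 of form-specific reads in LMI070 and in 43.7% ± 5.44 in DMSO (SD, n = 4 each; exact permutation p = 0.0286).

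**Figure D1:**
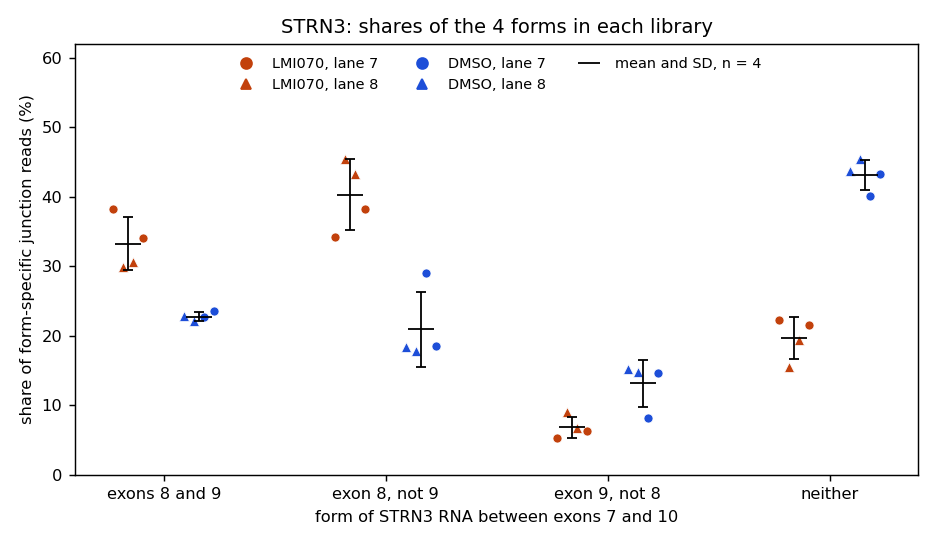
Share of each of the 4 forms of STRN3 RNA between exons 7 and 10 in every library, in percent of the reads on the form-specific junctions (y axis), with LMI070 in orange and DMSO in blue, circles for lane 7 and triangles for lane 8, and black bars for the mean and SD of 4 libraries. The form without either exon averaged 19.7% in LMI070 and 43.1% in DMSO, and both forms with exon 8 were higher in every LMI070 library than in any DMSO library.

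For exon 9 the answer depended on the measure. In the cassette test its inclusion was 51.4%, 61.8%, 52.5% and 45.6% in LMI070 libraries 13 to 16, against 28.1%, 33.9%, 36.7% and 34.0% in DMSO libraries 9 to 12. The means of 52.8% ± 6.69 in LMI070 and 33.2% ± 3.61 in DMSO (SD, n = 4 each) differed by 19.6 points and passed the edgeR test (adjusted p = 0.00204). That measure counts the junction from exon 9 to exon 10, which carried 267 reads under LMI070, against 195 in DMSO, and is also read from RNA with exon 8, while its skipping reads leave out the junction from exon 8 to 10. The junction from exon 7 to 9, which enters exon 9 without exon 8, had 47 reads in LMI070 and 85 in DMSO. With every junction that jumps exon 9 counted as skipping, inclusion was 38.7% ± 2.91 in LMI070 and 33.1% ± 1.81 in DMSO (SD, n = 4 each), without overlap between the libraries, and the edgeR call was lost (adjusted p = 0.83). By form-specific reads exon 9 was in 40.0% ± 2.67 of RNA in LMI070 and in 36.0% ± 3.48 in DMSO, with overlapping libraries (SD, n = 4 each; exact permutation p = 0.0857). Exon 8 measured against every junction that jumps it was at 74.6% ± 2.77 in LMI070 and 43.8% ± 2.13 in DMSO, 30.8 points apart, and was still called.

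The share of exon 9 was also taken separately in RNA with and without exon 8. Among RNA with exon 8 it was 52.8%, 39.7%, 41.4% and 47.1% in LMI070 libraries 13 to 16, against 55.4%, 55.4%, 43.8% and 56.1% in DMSO libraries 9 to 12. The groups overlapped and differed by -7.39 points (exact permutation p = 0.171, n = 4 each), by 0.038 points in lane 7 and by -14.8 points in lane 8. Among RNA without exon 8 exon 9 was in 26.0% ± 7.48 in LMI070 and 23.1% ± 4.196 in DMSO (SD, n = 4 each; exact permutation p = 0.6).

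Of the 274 junctions 86 could be tested for usage, which is the share of a junction in all reads that share a splice site with it. Called higher with LMI070 were 2, against 0.0394% of all 129495 junctions tested, and called lower was 1, against 0.027%. All 3 were in STRN3. The junction from exon 7 to 8 had 180, 187, 121 and 137 reads in LMI070 libraries 13 to 16, against 76, 88, 65 and 71 reads in DMSO libraries 9 to 12. Its usage was 75.9% ± 3.62 in LMI070 and 43.7% ± 2.23 in DMSO (SD, n = 4 each; edgeR adjusted p = 6.72e-15). The junction from exon 7 to 10 had 54, 26, 29 and 31 reads in LMI070 libraries 13 to 16, against 69, 74, 69 and 68 in DMSO libraries 9 to 12, and its usage fell to 10.2% ± 2.37 in LMI070, against 27.7% ± 1.62 in DMSO (SD, n = 4 each; edgeR adjusted p = 6.99e-12). These calls held under every alternative run. The junction from exon 8 to 10 was used at 30.7% ± 4.22 in LMI070 and 17.7% ± 3.26 in DMSO (SD, n = 4 each; edgeR adjusted p = 0.0212), and its call was lost when any of 6 libraries was left out (LMI070 14, 15 or 16, DMSO 9, 10 or 12; adjusted p 0.0657 to 0.724), without LMI070 library 16 and DMSO library 12 together (adjusted p = 0.197), in lane 7 alone, without the filter on low counts and with DESeq2.

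At the flanks of the alternative exons, the junction from exon 6 to 7 carried 903 reads in LMI070, against 719 in DMSO, and the junction from exon 10 to 11 had 795 in LMI070 and 667 in DMSO. These are raw sums over libraries of unequal depth. Scaled for depth, the 14 introns outside exons 7 to 10, these flanks among them, had a log2 ratio of 0.05 (exact permutation p = 0.229). A further jump from exon 7 straight to exon 11 was rare, with 6 reads in LMI070 and 16 in DMSO. In the cassette test exon 10 itself was included at 98.5% ± 0.98 in LMI070 and 96.7% ± 1.82 in DMSO (SD, n = 4 each; edgeR adjusted p = 0.94). That measure counts entry from exon 7 and the jump from exon 7 to 11 only. Against every junction that jumps exon 10, inclusion was 98.5% ± 0.37 in LMI070 and 96.9% ± 1.15 in DMSO (SD, n = 4 each; exact permutation p = 0.0571).

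In STRN, the exon that matches STRN3 exon 8 was constitutive. Its inclusion was 100% in each of the 4 LMI070 libraries, against 100%, 99.2%, 100% and 99.1% in DMSO libraries 9 to 12. Reads that jumped it numbered 0 in LMI070 and 2 in DMSO, and the groups were not distinguishable (exact permutation p = 0.429, n = 4 each). The 0 in LMI070 allows skipping of up to 0.586%, of 512 reads, for counting error only, and inclusion had no room to rise. STRN exon 9, which matches STRN3 exon 9, was jumped by 0 reads in LMI070 and 1 in DMSO.

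Between exons 8 and 9 of STRN the reads marked an exon that GENCODE 29 lacks, of 87 nt at chr2:36884520-36884606 on the minus strand. Its inclusion was 19.3%, 12.2%, 22.4% and 13.8% in LMI070 libraries 13 to 16, against 11.8%, 8%, 7.602% and 8.21% in DMSO libraries 9 to 12. Every LMI070 library was above every DMSO library, though LMI070 library 14 and DMSO library 9 were close. The means were 16.9% ± 4.74 in LMI070 and 8.90% ± 1.94 in DMSO (SD, n = 4 each), and the difference of 8.01 points did not pass the test over all exons (edgeR adjusted p = 0.227) and was below the 10 points set for a call. It was 8.64 points in lane 7 and 7.37 points in lane 8. Of the junctions of this exon, 64 reads in LMI070 and 32 in DMSO led into it and 82 in LMI070 and 37 in DMSO led out of it, and the junction that passes it by had 355 in LMI070 and 352 in DMSO. That last junction, from exon 8 to 9, was used at 69.1% ± 6.39 in LMI070 and 82.3% ± 3.03 in DMSO (SD, n = 4 each; edgeR adjusted p = 0.27). Unannotated junctions as a whole took 2.10% of STRN junction reads in LMI070 and 1.08% in DMSO.

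**Figure D2:**
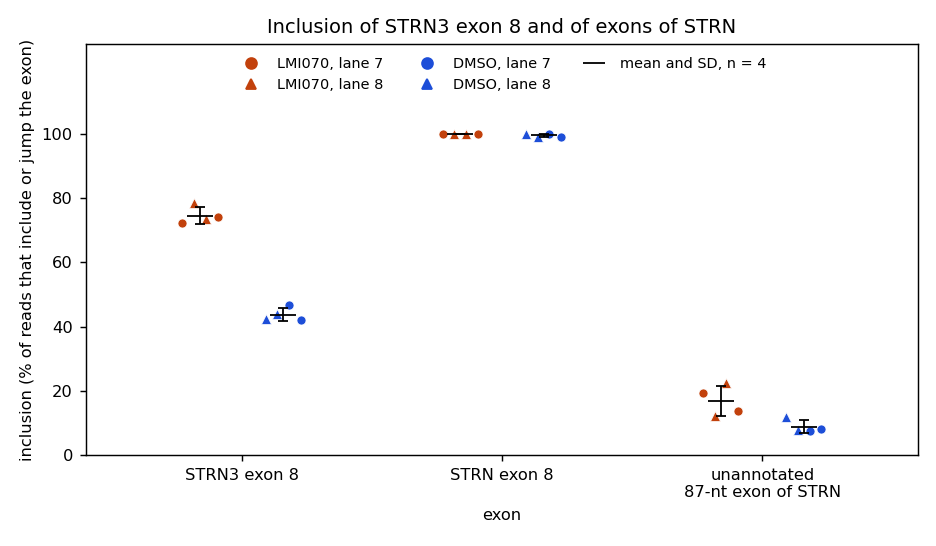
Inclusion in every library of STRN3 exon 8, of the matching exon 8 of STRN (both against all junctions that jump the exon) and of the unannotated 87-nt exon of STRN, in percent (y axis), with colours, symbols and bars as in the plot of the 4 forms. STRN3 exon 8 averaged 74.6% in LMI070 and 43.8% in DMSO, STRN exon 8 stood at or near 100% in all libraries, and the 87-nt exon averaged 16.9% in LMI070 and 8.90% in DMSO.

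STRN4 had 11 cassette exons that could be tested, none of them called. Their differences lay between -1.07 and 1.15 points. Several of them overlap and share a junction with a neighbouring form, so they are not all separate exons. The entry with the highest difference, of 35 nt, had 0 reads in LMI070 and 1 in DMSO on the junction out of it. Nearest to a call was an annotated exon of 60 nt (chr19:46733816-46733875), included at 2.604%, 1.34%, 1.94% and 2.24% in LMI070 libraries 13 to 16, against 0.194%, 0.792%, 0.946% and 1.76% in DMSO libraries 9 to 12. It was rare in both groups and the libraries overlapped (edgeR adjusted p = 0.90). For a 444-nt stretch at chr19:46736458-46736901 the cassette measure gave 98.3% ± 0.55 in LMI070 and 99.3% ± 0.60 in DMSO (SD, n = 4 each; edgeR adjusted p = 0.99). These values do not give its frequency. The junction into it, with 1153 reads in LMI070 and 1192 in DMSO, is shared with exon 4. The junction out of it had 17 reads in LMI070 and 25 in DMSO. The junction from exon 4 to 5 had 1029 in LMI070 and 1135 in DMSO, so the 444-nt stretch was rare in both groups. STRN4 exon 8, which matches STRN3 exon 9, was jumped by 2 reads in LMI070 and 1 in DMSO. Its exon 9 has a pair of acceptor sites 21 nt apart, and the longer form of 116 nt took 19.4% ± 3.79 in LMI070 and 23.9% ± 4.54 in DMSO (SD, n = 4 each; exact permutation p = 0.2). Its exon 1 was joined to exon 6 by 9 reads in LMI070 and 1 in DMSO, and to exon 5 by 3 reads in LMI070 and 1 in DMSO, so that all these reads jumped exons 2, 3 and 4 together. Inclusion of exon 2 was 97.95% to 99.4% in LMI070 and 99.5% to 100% in DMSO (exact permutation p = 0.0286, n = 4 each). Inclusion of exon 3 was 98.4% to 99.5% in LMI070 and 99.7% to 100% in DMSO (exact permutation p = 0.0286, n = 4 each). The same reads, 12 in LMI070 and 2 in DMSO, jumped both. They are among 73 internal exons compared in this way without adjustment. Exon 4, jumped by 29 reads in LMI070 and 14 in DMSO, was included at 97.4% ± 0.40 in LMI070 and 98.9% ± 0.92 in DMSO (SD, n = 4 each; exact permutation p = 0.0571), and exon 5, jumped by 18 reads in LMI070 and 16 in DMSO, at 98.3% ± 0.50 in LMI070 and 98.6% ± 1.30 in DMSO (SD, n = 4 each; exact permutation p = 0.743).

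STRIP2 had 6 cassette exons that could be tested and MOB4 had 3, and none was called. The lowest p was at STRIP2 exon 20, included at 96.3%, 93.3%, 89.2% and 100% in LMI070 libraries 13 to 16, against 84.6%, 87.0%, 87.1% and 97.3% in DMSO libraries 9 to 12. The libraries overlapped (edgeR adjusted p = 0.995), and 9 reads in LMI070 and 16 in DMSO skipped the exon. STRIP2 exon 7 was at 88.3% ± 6.12 in LMI070 and 93.3% ± 7.11 in DMSO (SD, n = 4 each; exact permutation p = 0.257), and STRIP2 exon 5, the only internal exon of the 5 genes beside the exons 8 of STRN3 and STRN that ended in GA (TGA), was at 99.0% ± 1.31 in LMI070 and at 100% in DMSO. MOB4 exon 2, of 63 nt, was the one alternative exon of that gene below 95% and was included at 86.9% ± 1.24 in LMI070 and 89.2% ± 1.504 in DMSO (SD, n = 4 each; exact permutation p = 0.0571). Reads that joined the neighbouring gene HSPE1 to MOB4 exon 2 made up 1.68% of the reads at that acceptor in LMI070 (12 of 713) and 2.86% in DMSO (21 of 733), with an exact permutation p of 0.0857 (n = 4 each).

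Over all 73 internal exons, 68 had a mean inclusion above 95% in both groups. The other 5 were STRN3 exons 8 and 9, STRIP2 exons 7 and 20 and MOB4 exon 2, and these were also the 5 whose means differed by 2 points or more. The exon numbering follows STRN-201, STRN3-202, STRN4-202, STRIP2-201 and MOB4-202.

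**Figure D3:**
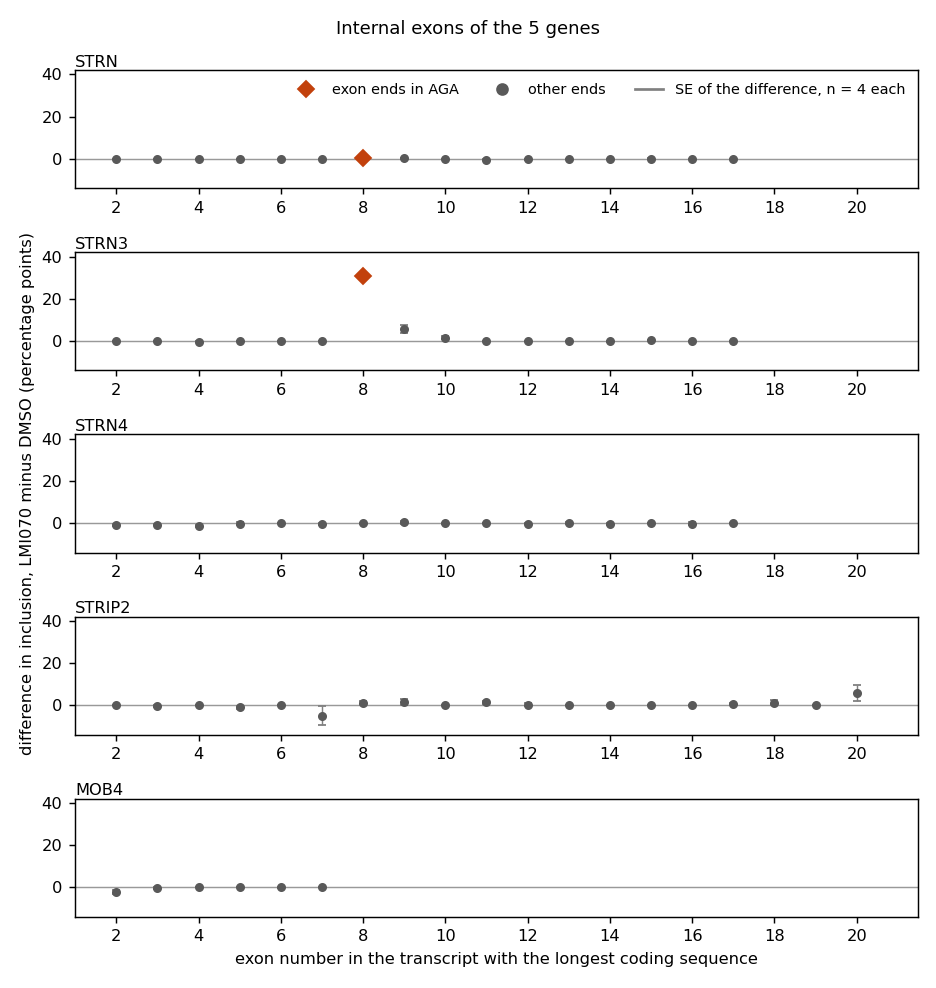
Difference in mean inclusion, LMI070 minus DMSO in percentage points (y axis), of each internal exon of STRN, STRN3, STRN4, STRIP2 and MOB4 by exon number (x axis), against all junctions that jump the exon, with bars for the standard error of the difference of 4 against 4 libraries and diamonds for exons that end in AGA. STRN3 exon 8 stands at 30.8 points, and 68 of the 73 exons lie within 2 points of 0, STRN exon 8 among them.

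No member passed the test of spliced reads per gene. The level of a gene was the sum of reads over its annotated introns, scaled to CPM with TMM factors, and in bulk RNA fewer cells that express a gene and less of its RNA per cell cannot be told apart. Called higher were 0 of the 5 genes and called lower 0, against 0.0211% and 0.105% of the 14250 genes tested in edgeR; DESeq2 also called 0 of the 5, as did edgeR without LMI070 library 16 and DMSO library 12. At an unadjusted p under 0.05 there were 2, STRN3 and STRN4, against 10.4% of all genes. The groups overlapped for all 5 genes, while they did not for 4.17% of all genes.

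STRN3 had 109, 108, 104 and 102 CPM in LMI070 libraries 13 to 16, against 103, 99.2, 94.2 and 100.8 CPM in DMSO libraries 9 to 12. The highest DMSO library was above the lowest LMI070 library, and the log2 fold change was 0.09 (SE 0.04; edgeR adjusted p = 0.48). An RNA with exons 8 and 9 has more introns to read than one without them. Over the 14 introns outside exons 7 to 10 the gene had 90.8 ± 3.21 CPM in LMI070 and 87.5 ± 3.64 CPM in DMSO (SD, n = 4 each), a log2 ratio of 0.05 (exact permutation p = 0.229).

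STRN4 had 149.7, 150.3, 152 and 142 CPM in LMI070 libraries 13 to 16, against 167, 162, 173 and 148 CPM in DMSO libraries 9 to 12. DMSO library 12 was within the LMI070 range, and the log2 fold change of -0.13 (SE 0.05) did not pass (edgeR adjusted p = 0.37). MOB4 had 78.7, 78.7, 86.9 and 78.7 CPM in LMI070 libraries 13 to 16, against 81.0, 85.8, 87.2 and 89.1 CPM in DMSO libraries 9 to 12, with LMI070 library 15 apart from the other LMI070 libraries (log2 fold change -0.09, SE 0.05; edgeR adjusted p = 0.55). STRN averaged 89.2 ± 4.83 CPM in LMI070 and 87.8 ± 4.21 CPM in DMSO (SD, n = 4 each; edgeR adjusted p = 0.91), with libraries from 84.0 to 93.7 CPM in LMI070 and from 82.9 to 91.4 CPM in DMSO. STRIP2 averaged 30.0 ± 2.16 CPM in LMI070 and 30.8 ± 3.07 CPM in DMSO (SD, n = 4 each; edgeR adjusted p = 0.90).

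To set the genes beside each other, the median reads per intron of the numbered transcript were taken per 1e6 scaled reads. MOB4 stood highest with 11.5 ± 1.04 in LMI070 and 12.2 ± 1.02 in DMSO, followed by STRN4 with 8.86 ± 0.25 in LMI070 and 9.37 ± 1.07 in DMSO (SD, n = 4 each). STRN3 had 6.22 ± 0.13 in LMI070 and 5.97 ± 0.38 in DMSO, and STRN had 5.49 ± 0.48 in LMI070 and 5.25 ± 0.31 in DMSO (SD, n = 4 each). STRIP2 was lowest with 1.55 ± 0.16 in LMI070 and 1.56 ± 0.16 in DMSO (SD, n = 4 each). Within either group the ranges of neighbours in this order did not overlap; STRN3 and STRN came closest, with a lowest STRN3 library of 5.58 and a highest STRN library of 5.57 in DMSO.

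**Figure D4:**
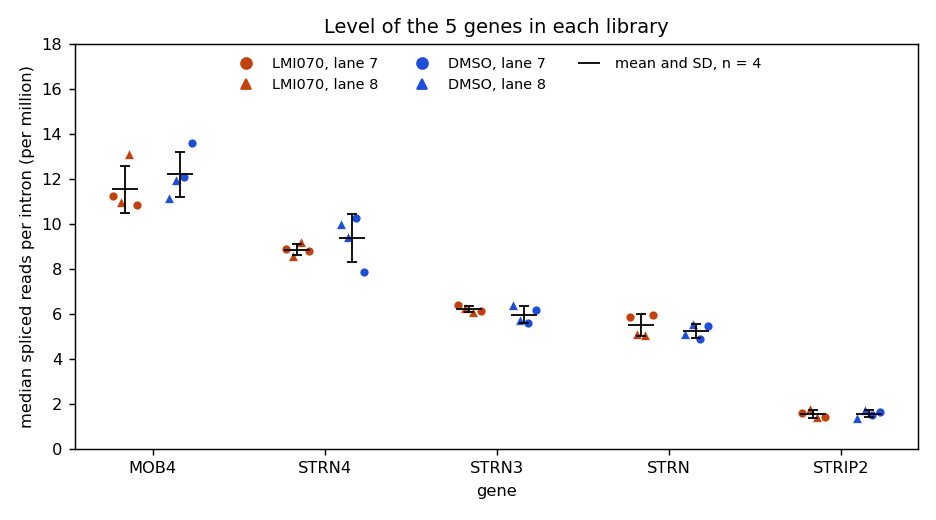
Median spliced reads per intron, per 1e6 scaled reads (y axis), of the 5 genes in every library, with colours, symbols and bars as in the plot of the 4 forms. The order MOB4, STRN4, STRN3, STRN, STRIP2 was the same in LMI070 (11.5, 8.86, 6.22, 5.49 and 1.55) and in DMSO (12.2, 9.37, 5.97, 5.25 and 1.56), and none of the 5 genes passed the test between the groups.

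None of the STRIPAK partners of the striatins examined passed the test of spliced reads. Of the 14 partner genes 13 passed the filter on low counts, and TRAF3IP3, an adaptor best known from immune cells, had 0 reads in every library. Called were 0 of the 13 in either direction by edgeR and 0 by DESeq2. Over all genes the edgeR share called was 0.0211% higher and 0.105% lower. An unadjusted edgeR p under 0.05 was found for 1 of the 13, against 10.4% of all genes. The median log2 fold change of the 13 was -0.04, against 0.00 over all genes. Of the phosphatase subunits, the scaffold subunit PPP2R1A had 612 ± 31.4 CPM in LMI070 and 595 ± 30.5 CPM in DMSO, and the catalytic subunit PPP2CA had 235 ± 2.32 CPM in LMI070 and 242 ± 12.6 CPM in DMSO (SD, n = 4 each). PPP2CB averaged 61.5 CPM in LMI070 and 65.6 CPM in DMSO, and PPP2R1B averaged 148 CPM in LMI070 and 152 CPM in DMSO. STK26 (MST4), a GCKIII kinase, had the lowest p: 89.7, 100.4, 108 and 92.7 CPM in LMI070 libraries 13 to 16, against 106, 111, 107 and 107 CPM in DMSO libraries 9 to 12. LMI070 library 15 lay inside the DMSO range (log2 fold change -0.14, SE 0.05; edgeR adjusted p = 0.34). The other kinases of that family, STK24 (113 CPM in LMI070 and 113 CPM in DMSO) and STK25 (133 CPM in LMI070 and 129 CPM in DMSO), had adjusted p of 0.98 and 0.87 in edgeR.

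The remaining partners spanned a wide range of levels. PDCD10 (CCM3), which binds the kinases, averaged 62.5 CPM in LMI070 and 65.8 CPM in DMSO. SLMAP, a tail-anchored subunit, averaged 122 CPM in LMI070 and 125 CPM in DMSO, and its partner SIKE1 averaged 31.0 CPM in LMI070 and 33.5 CPM in DMSO, with FGFR1OP2 at 27.6 CPM in both groups. CTTNBP2, a cortactin-binding protein known from neurons, averaged 10.04 CPM in LMI070 and 10.2 CPM in DMSO, and its relative CTTNBP2NL averaged 8.85 CPM in LMI070 and 8.43 CPM in DMSO. Each of these 6 had an edgeR adjusted p above 0.60.

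**Figure D5:**
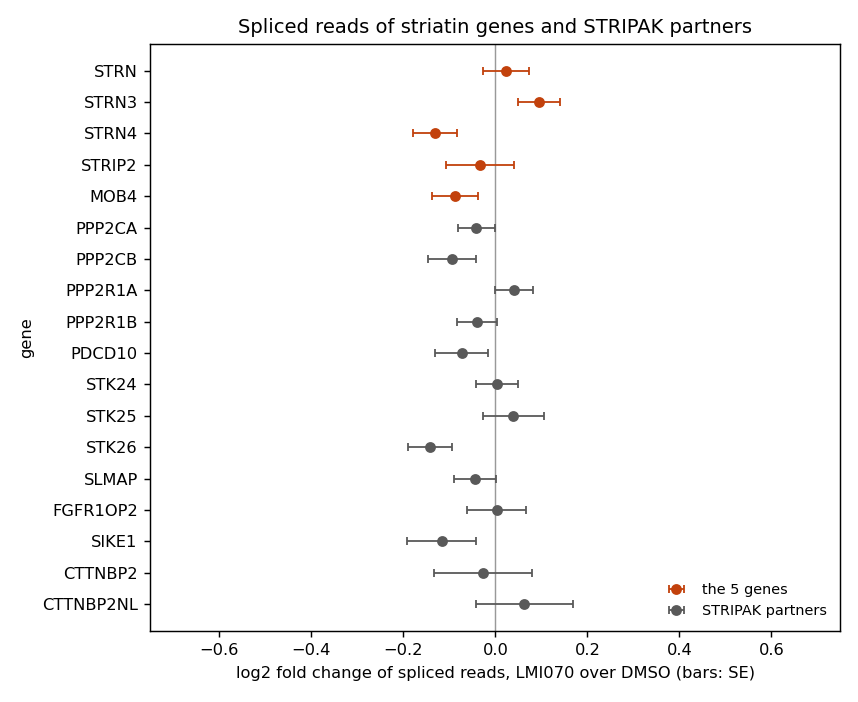
Log2 fold change of spliced reads, LMI070 over DMSO (x axis), of the 5 genes (orange) and of the 13 STRIPAK partners with enough reads (grey), with bars for the standard error from the edgeR fit. Values lie between -0.14 for STK26 and 0.09 for STRN3, and none passed the test over all genes.

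Of 19 Hippo pathway genes all passed the filter and 0 were called in either direction by edgeR or DESeq2. Over all genes the edgeR share called was 0.0211% higher and 0.105% lower. At an unadjusted p under 0.05 there were 3 of the 19, against 10.4% of all genes, and the median log2 fold change over the 19 was 0.06, against -0.0024 over all genes. In lane 7 alone, where 3.71% of all 14271 genes tested were called higher, 2 of the 19 were called higher: the transcription factor TEAD3 and the coactivator WWTR1 (TAZ). TEAD3 had 13.55, 9.17, 8.28 and 10.8 CPM in LMI070 libraries 13 to 16, against 9.28, 8.43, 8.11 and 7.94 CPM in DMSO libraries 9 to 12, and the values in LMI070 libraries 13 and 16, both of lane 7, were the highest; treatment by lane had an adjusted p of 0.083 in edgeR.

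Finally, the annotated cassette exons of other genes were ranked by the mean absolute difference of their inclusion from that of STRN3 exon 8 over the 8 libraries, among 17358 exons. The nearest was a 90-nt exon of VPS29, a retromer subunit, at 4.99 points, with 70.5% ± 3.79 in LMI070 and 40.2% ± 3.95 in DMSO (SD, n = 4 each). An 80-nt exon of TUBG2, a gamma-tubulin gene, followed at 7.08 points, a 12-nt exon of VPS29 at 7.65 points, a 120-nt exon of PWWP2A at 10.01 points and a 72-nt exon of MLH3, a mismatch repair gene, at 10.1 points. Their inclusion was 63.9% to 79.8% in LMI070 and 40.2% to 53.4% in DMSO, and of these 5 the edgeR test called the VPS29 exons, which share 1 end, and not those of TUBG2, PWWP2A and MLH3. The ranking describes levels that the exons had in common in these libraries and tests nothing.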

How the data were processed

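Spliced RNA was measured in 8 HEK293 libraries, 4 treated with LMI070 and 4 with DMSO. STAR 2.6.0c and the build GRCh38 are named in the submitters' processing notes. The deposited tables hold, per the file headers' format and the values, raw counts of uniquely and of multiply mapped reads at each junction, without normalization by the authors; filters and alignment settings are not given in the sources used here. Reads inside exons are not in the tables. The unique counts were used, 20369466 to 36131054 per library, and intervals or limits cover counting error only. No genome sequence was used, so bases of introns were not read.

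Junctions were matched to GENCODE 29. A cassette exon had 3 to 500 nt, at least 10 inclusion and 10 skipping reads in all and 10 reads per library. It was measured by a single junction into it, a single junction out of it and a single skipping junction, which overlapping forms could share. Paired inclusion and skipping counts, junction usage (at least 20 reads, and 10 at its sites per library) and spliced reads per gene (TMM factors) were fitted over all features with edgeR 4.0.16 under R 4.3.3, with lane in the model, and adjusted by Benjamini-Hochberg over all of them. CPM values are these counts per 1e6 scaled reads. Standard errors of log2 fold changes came from the F statistics. Shares per library were compared by exact permutation, two-sided, and proteins translated from GENCODE transcripts were aligned with Biopython 1.88. On simulated data with the real means, edgeR recovered 200 of 200 genes changed by 1 on the log2 scale among 14231, 152 of 200 exons changed by 2 among 28432 and 170 of 200 junctions changed by 2 among 28187, with 10 false calls among the genes, 0 among the exons and 4 among the junctions. The changed genes, exons and junctions were well covered, and the exons and junctions had intermediate inclusion or usage. Dispersion was fixed and no lane effect was simulated. Recovery of rare or nearly constitutive exons was not tested.

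Members and gene lists were chosen with earlier results of these data known. Named were the members, STRN3 exons 8 and 9, the matching exons of STRN and STRN4, called exons and junctions, the 5 uncalled member exons with the lowest p, the STRIPAK partners (1 is not reported here), called Hippo genes and the 5 exons most like STRN3 exon 8; STRN4 exon 9, exons 2 to 5, STRIP2 exons 5 and 7, MOB4 exon 2, the STRN exon 8 to 9 junction, TEAD3 and WWTR1 were added after their values were seen. The chi-square per degree of freedom between libraries of a group was 1.14 to 2.73. The lowest values were 1.14 for LMI070 libraries 14 and 15 and 1.16 for DMSO libraries 9 and 10, all in lane 8. These values cannot tell whether libraries came from separate cultures. Alternatives were DESeq2 1.42.0, other filters, scaling and skipping junctions, single lanes, no lane term, multiply mapped reads and each library left out.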

Additional observations from a re-analysis of the deposited data

Results flagged for a closer look

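Values were checked for a library far from the other 3 of its group, in 66 groups of 4, of which 8 stood out; chance alone marks about 1 in 20. In 4 of them the library was DMSO replicate 11, in shares of STRN3 forms that rest on the same reads. Its share of the form with exon 8 only was 29.1%, against 17.8% to 18.5% in the other DMSO libraries, and its share of the form with exon 9 only was 8.14%, against 14.6% to 15.2%. Exon 9 made up 43.8% of its RNA with exon 8, against 55.4% to 56.1%, and 16.9% of its RNA without exon 8, against 24.5% to 25.8%. The unannotated 87-nt exon of STRN was at 11.8% in DMSO replicate 9, against 7.602% to 8.21% in the other DMSO libraries. MOB4 had 86.9 CPM in LMI070 replicate 15, against 78.7 CPM in each of the other LMI070 libraries. STK25 had 103 CPM in DMSO replicate 12, against 135 to 139.9 CPM, and STK26 had 111 CPM in DMSO replicate 10, against 106 to 107 CPM.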

How the results depend on the processing

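The higher inclusion of STRN3 exon 8 kept its direction and its call under all 16 alternatives, at 29.3 to 36.2 points (adjusted p at most 0.000622). Member exons called higher were 1, not 2, with DESeq2, in lane 7 alone and without LMI070 replicate 14, and 1 to 2 over single libraries left out. Member junctions called higher were 1, not 2, with DESeq2, without the filter on low counts, in lane 7 alone and without LMI070 replicate 16 and DMSO replicate 12 together (chosen after seeing the data), and 1 to 2 over single libraries left out. Hippo genes called were 2 in lane 7 alone, where 3.71% of all genes were called higher, and 0 otherwise. Member and partner genes called were 0 under all 17 alternatives.

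The form of STRN3 with exon 8 only differed by 12.4 points in lane 7 and 26.3 points in lane 8, and by 17.6 to 22.1 points with 1 library left out, its exact permutation p reaching 0.0571 without LMI070 replicate 14 or 15. The form with neither exon differed by -19.8 points in lane 7 and -27.1 points in lane 8. The form with exon 9 only differed by -8.04 to -5.68 points with libraries left out and reached an exact permutation p of 0.0286 without DMSO replicate 11. Some small differences changed sign: STRN in lane 8 (log2 fold change -0.0563) and without DMSO replicate 11 (-0.0192 in a range to 0.0655), STRIP2 without LMI070 replicate 15, DMSO replicate 10, DMSO replicate 12 or LMI070 replicate 16 and DMSO replicate 12 (-0.0791 to 0.0335 with libraries left out; 0.0268 for the last), exon 9 in RNA without exon 8 without LMI070 replicate 14 (-0.595 to 5.13 points with libraries left out), and STRN4 exon 8 without that library (0.094 points, over a range of -0.19 to 0.094 points). The cause of these changes was not tested.

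No paired analysis was possible because the groups share no replicate numbers. With 2 libraries per group and lane there is no exact test under p = 0.333 within a lane. Form-specific junctions of STRN3 held 144 to 243 reads per library, which limits the shares, and unspliced RNA cannot be seen in these tables.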
